A study of Mus musculus with 9 samples.

Results

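The transcripts described here encode 8 proteins that make, carry and remove retinoic acid in the cell. They were taken from the deposited tables by gene symbol and were Aldh1a1, Aldh1a2, Aldh1a3, Rdh10, Dhrs3, Crabp1, Crabp2 and Cyp26b1, that is 8 of 52025 genes listed. Of these, 7 had on at least 1 day a mean above 1 FPKM (mapped fragments scaled by exon length and library depth) and were tested among 15495 such genes, whereas Cyp26b1 was not. RNA-Seq was performed on 9 libraries from ovaries of Kunming mice at postnatal day 14 (PD14), PD15 and PD16, with 3 libraries for each day, and the labels name no treatment and no allele. The study chose these days because the antrum, the fluid-filled cavity of the growing follicle, first forms then, a step it calls iFFA. In the labels the tissue is ovary but the source is granulosa cells, whereas the study's methods describe whole ovaries. The study describes the ovaries of a day as independent biological samples, and the sources used here do not say whether each came from a separate animal. The exons of the 8 genes did not overlap those of another gene in GENCODE M21.

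Retinoic acid is made from retinol, the circulating form of vitamin A, in consecutive oxidations. Retinol is first oxidised to retinaldehyde by dehydrogenases such as RDH10, a step that DHRS3 can reverse. Retinaldehyde is then oxidised irreversibly to retinoic acid by the ALDH1A enzymes. Retinoic acid is bound in the cytoplasm by CRABP1 and CRABP2, acts in the nucleus through the retinoic acid receptors, and is degraded by the CYP26 enzymes. In the ovary, this pathway is known above all for its part in the entry of fetal germ cells into meiosis, and ALDH1A1 is also known from steroid-producing and epithelial cells.

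Promoter windows were found in the RefSeq table (GRCm38.p6) for 5 of the 8 genes, with 8 windows in all. The sequences of Aldh1a1 and Aldh1a2 are shown because these were the synthesis genes for which every PD15 and PD16 library lay below every PD14 library. Capitals mark the octamer ATGCAAAT, the letters known as the binding motif of POU-domain factors. Each line gives the 250 bases before a RefSeq start site, on the plus strand, 5′ to 3′. The Aldh1a1 line is chr19:20601718-20601967, before the start at 20601968, which lies inside the annotated gene, and the Aldh1a2 line is chr9:71215539-71215788.
Aldh1a1 upstream: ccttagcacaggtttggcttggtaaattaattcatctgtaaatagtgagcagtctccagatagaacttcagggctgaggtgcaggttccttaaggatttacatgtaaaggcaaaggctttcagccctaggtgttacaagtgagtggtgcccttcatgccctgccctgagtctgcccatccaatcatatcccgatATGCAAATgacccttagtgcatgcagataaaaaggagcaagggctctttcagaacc
Aldh1a2 upstream: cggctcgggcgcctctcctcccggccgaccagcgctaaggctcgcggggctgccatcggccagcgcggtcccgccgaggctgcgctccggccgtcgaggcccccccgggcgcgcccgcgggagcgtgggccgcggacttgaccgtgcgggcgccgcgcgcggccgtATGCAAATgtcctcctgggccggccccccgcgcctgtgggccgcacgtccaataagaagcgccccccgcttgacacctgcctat
The octamer began 56 bases before the shown Aldh1a1 start and 84 bases before the Aldh1a2 start, on the strand of the gene in both. The other Aldh1a1 window, before a start at 20492583 and with 43.3% G or C, did not hold it, nor did the windows of Crabp1, Cyp26b1 and Dhrs3. Both strands were searched, and 1.74% of all 32851 windows of 300 bases (250 before and 50 after the start) held these letters. In Aldh1a1, the last base of the octamer overlapped the letters GGGTCA on the other strand, a form of the half-site of nuclear receptors, which 13.7% of all windows held. The half-site forms AGGTCA and AGTTCA were not found in the windows of the 5 genes, and 16.3% and 14.0% of all windows held them. The letters TATAAA were present only in the Cyp26b1 window among those of the 5 genes, and 13.6% of all windows held them. The letters CCAAT were present in windows of Aldh1a1, Aldh1a2 and Dhrs3, and 37.4% of all windows held them. Direct repeats of AGGTCA spaced by 2 or by 5 bases were also searched and not found in these windows, and 0.00913% of all windows held each. The windows also differed in base composition. The 300 bases around the shown Aldh1a2 start held 78% G or C and those around the shown Aldh1a1 start 47%, beside a median of 52.7% over all windows. The motifs were chosen after these sequences had been read, and FPKM of a whole gene does not show which start was used.

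Depth lay between 20.4 and 28.7 M mapped fragments (median 24.2 M), as derived from the steps of the low FPKM values. Markers of several ovarian cell types were present in every library. All 12 granulosa cell markers, all 14 oocyte markers, all 9 theca and interstitial markers and all 11 stromal markers passed the expression filter. Among the granulosa markers, Foxl2 stood at 142 ± 8.28 FPKM (SD, n = 3) at PD14, and Zp3, an oocyte coat protein, at 349 ± 38.5. The libraries therefore held RNA of oocytes and stroma beside granulosa cells, and in such bulk RNA fewer cells of a type and less RNA per cell cannot be told apart.

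Levels of the 8 genes spanned a wide range. Aldh1a1 was by far the most abundant, with a mean of 161 FPKM over the 9 libraries, and only 250 of the tested genes had a higher mean. Aldh1a2 followed with 20.52 FPKM, Dhrs3 with 17.0, Crabp1 with 7.38, Crabp2 with 6.94, Rdh10 with 5.61, Aldh1a3 with 1.99 and Cyp26b1 with 0.893. FPKM is scaled by exon length, so these levels can be set beside each other if the lengths used fit the transcripts present. This was not checked, and the sums and ratios of genes given below rest on it too. The order of the means was not the same on every day, since Dhrs3 (19.4 FPKM) exceeded Aldh1a2 (16.7) at PD15 and Crabp2 (8.24) exceeded Crabp1 (6.59) at PD16. Some neighbours in this order were not separated. The libraries of Aldh1a2 and Dhrs3 did not overlap at PD14 but overlapped at PD15 and PD16. The order of Crabp1, Crabp2 and Rdh10 was resolved only in part. At PD14, Crabp1 (7.48 to 9.12 FPKM) lay above both others, which overlapped. At PD15 all 3 overlapped, and at PD16 Crabp2 (6.33 to 9.81 FPKM) lay above Rdh10 (5.40 to 5.87 FPKM) while Crabp1 overlapped both. Aldh1a3 lay above Cyp26b1 in every library, although the highest Cyp26b1 value at PD15 exceeded the lowest Aldh1a3 value of that day.

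**Figure D1:**
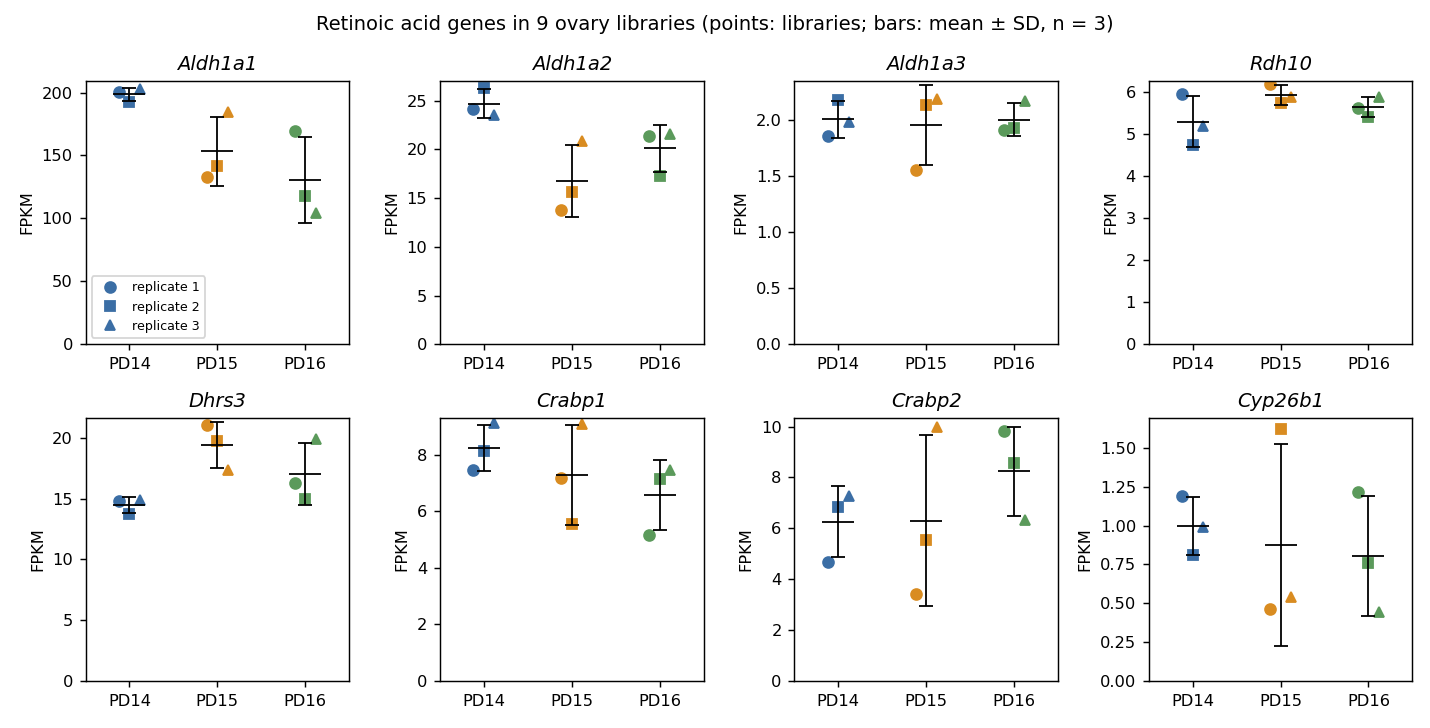
FPKM (vertical axis, linear, from 0) of the 8 genes at PD14, PD15 and PD16. Points are single libraries, with the shape giving the replicate number, and bars are the mean ± SD of 3 libraries. The PD14 libraries of Aldh1a1 (192.8 to 202.6 FPKM) and Aldh1a2 (23.6 to 26.4) lie above all other libraries, and those of Dhrs3 (13.7 to 14.9) lie below all others.

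None of the 7 tested genes passed the test between any 2 days (limma on log2(FPKM + 1), Benjamini-Hochberg adjusted p under 0.05). At PD15 against PD14, 0 of 7 passed, beside 0.678% of all genes tested. For PD16 against PD14 the count was 0 of 7 beside 4.25%, and for PD16 against PD15 it was 0 of 7 beside 0.729%. With limma's F test among the 3 days the count was 0 of 7 beside 3.03%. At an unadjusted p under 0.05, 2 genes (Aldh1a2 and Dhrs3) were counted at PD15 against PD14 beside 14.7% of all genes, 1 gene (Aldh1a1) at PD16 against PD14 beside 22.8%, and 0 at PD16 against PD15 beside 14.1%. By the unadjusted F test, 3 of 7 (Aldh1a1, Aldh1a2 and Dhrs3) were counted beside 22.3% of all genes. The median difference of the 7 genes was -0.07 on the log2 scale at PD15 against PD14, beside 0.0065 over all genes tested, and -0.00047 at PD16 against PD14, beside 0.0093. The genes were too few for these shares to be told from the background.

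The libraries of 2 days did not overlap for 3 of the 7 genes at PD15 against PD14 (Aldh1a1, Aldh1a2 and Dhrs3), beside 20.6% of all genes. For PD16 against PD14 there were 4 (the same 3 and Crabp1) beside 28.5%, and for PD16 against PD15 there were 0 beside 19.6%. For a single gene, the exact permutation test of 3 libraries against 3 cannot give a two-sided p below 0.10, and all of these pairs reached that value. Both comparisons with PD14 share its 3 libraries.

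Among the enzymes that form retinoic acid, Aldh1a1 and Aldh1a2 had lower levels at PD15 and PD16 than at PD14, and Aldh1a3 differed little. Aldh1a1 (ENSMUSG00000053279, chr19:20492715-20643465, plus strand, GRCm38) measured 200.5, 192.8 and 202.6 FPKM in the 3 PD14 libraries. The PD15 libraries held 133.3, 142.0 and 184.6 FPKM, and the PD16 libraries 169.5, 117.4 and 104.5 FPKM. Every PD14 library thus lay above every later one, whereas PD15 and PD16 overlapped. The means were 199 ± 5.17, 153 ± 27.4 and 130 ± 34.4 FPKM (SD, n = 3), a difference from PD14 of -22.8% at PD15 and -34.3% at PD16. The spread also differed among the days, since the coefficient of variation was 2.60% at PD14, 17.9% at PD15 and 26.4% at PD16. On the log2(FPKM + 1) scale, PD15 minus PD14 was -0.39 (SE 0.175, 95% interval -0.78 to 0.01, limma adjusted p = 0.351). PD16 minus PD14 was -0.63 (95% interval -1.03 to -0.24, limma adjusted p = 0.0743). Between PD15 and PD16 the difference was -0.25 (95% interval -0.64 to 0.15, limma adjusted p = 0.582). The PD16 comparison was close to the threshold. Without PD16 replicate 1, the highest of its day, the difference was -0.84 and Aldh1a1 passed the test (limma adjusted p = 0.0436). It also passed under quantile normalisation and under array weights, and its adjusted p by limma ran from 0.0268 to 0.186 over all alternatives tried. The libraries held 13120 to 26178 fragments of Aldh1a1, and the spread within days was 21.99 times that of counting error.

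Aldh1a2 (ENSMUSG00000013584, chr9:71215789-71296243, plus strand) encodes the enzyme that supplies most retinoic acid in the embryo. Its PD14 libraries held 24.2, 26.4 and 23.6 FPKM. At PD15 the values were 13.7, 15.6 and 20.9 FPKM, and at PD16 they were 21.4, 17.3 and 21.6 FPKM. The lowest level was thus on PD15, and the PD14 libraries lay above the 6 others. The means were 24.7 ± 1.46, 16.7 ± 3.69 and 20.1 ± 2.44 FPKM (SD, n = 3), a difference from PD14 of -32.3% at PD15 and -18.6% at PD16. The log2 difference from PD14 was -0.55 at PD15 (SE 0.139, 95% interval -0.87 to -0.24, limma adjusted p = 0.118). It was -0.29 at PD16 (95% interval -0.60 to 0.02, limma adjusted p = 0.248), and PD16 stood 0.26 above PD15 (limma adjusted p = 0.430). Without PD15 replicate 3, the library of that day nearest to PD14, the difference at PD15 was -0.72 and passed the test (limma adjusted p = 0.0405, with 0.0405 to 0.295 over all alternatives tried).

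Aldh1a3 (ENSMUSG00000015134, chr7:66390890-66427517, minus strand), the third enzyme of this family, was close to the expression filter. It measured 1.86, 2.18 and 1.98 FPKM at PD14. The PD15 libraries held 1.55, 2.13 and 2.19 FPKM, and the PD16 libraries 1.91, 1.93 and 2.17 FPKM. The days overlapped throughout, and the means were 2.004 ± 0.163, 1.955 ± 0.353 and 2.003 ± 0.146 FPKM (SD, n = 3). The difference at PD16 against PD14 was -0.00047 on the log2 scale, with a 95% interval of -0.23 to 0.23 (limma adjusted p = 0.998). Its sign was reversed by quantile normalisation, at 0.02.

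The 3 ALDH1A transcripts were also summed within each library. The sum was 225 ± 3.57 FPKM at PD14, 172 ± 31.4 at PD15 and 153 ± 35.1 at PD16 (SD, n = 3). Aldh1a1 made up most of it in every library, with 81.4% to 89.7%, and Aldh1a2 contributed 9.25% to 16.9%. The balance between these genes was uneven over the days. The ratio of Aldh1a1 to Aldh1a2 was 8.06 ± 0.667 at PD14, 9.21 ± 0.438 at PD15 and 6.51 ± 1.56 at PD16 (SD, n = 3). The PD15 libraries (8.85 to 9.70) did not overlap those of PD14 (7.31 to 8.59) or PD16 (4.83 to 7.91), and the lowest ratio was in PD16 replicate 3. This ratio was examined after the values had been seen, and no test was made of it.

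**Figure D2:**
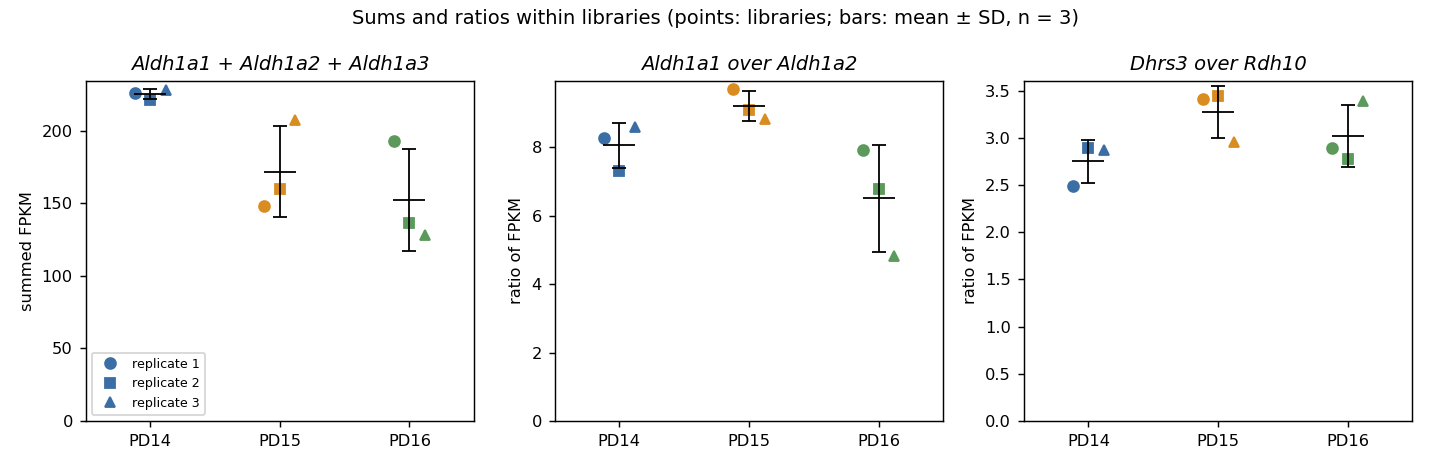
Summed FPKM of Aldh1a1, Aldh1a2 and Aldh1a3 (left), the FPKM of Aldh1a1 over that of Aldh1a2 (middle) and the FPKM of Dhrs3 over that of Rdh10 (right) in each library, on linear vertical axes from 0. Points are libraries and bars are the mean ± SD of 3 libraries. The summed level is lower in each PD15 and PD16 library than in the PD14 libraries (221 to 228 FPKM), and the Aldh1a1 to Aldh1a2 ratio is highest at PD15.

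Dhrs3 and Rdh10, whose products interconvert retinol and retinaldehyde, had higher mean levels at PD15 than at PD14. Among the 8 genes, Crabp2 also had a slightly higher mean FPKM at PD15 (6.31 against 6.27), with a log2 difference of -0.07. Of Dhrs3 and Rdh10, only Dhrs3 was separated from PD14 in every library. Dhrs3 (ENSMUSG00000066026, chr4:144892827-144928209, plus strand), whose product reduces retinaldehyde back to retinol, measured 14.8, 13.7 and 14.9 FPKM at PD14. The PD15 libraries held 21.1, 19.7 and 17.4 FPKM, and the PD16 libraries 16.3, 15.0 and 19.9 FPKM. All later libraries lay above PD14, although the lowest PD16 value (14.97 FPKM) exceeded the highest PD14 value (14.91 FPKM) only slightly. The means were 14.5 ± 0.654, 19.4 ± 1.89 and 17.0 ± 2.56 FPKM (SD, n = 3), with PD15 34.0% above PD14. The log2 difference was 0.40 at PD15 (SE 0.103, 95% interval 0.16 to 0.63, limma adjusted p = 0.132). It was 0.21 at PD16 (95% interval -0.02 to 0.45, limma adjusted p = 0.252). From PD15 to PD16 it was -0.18 (limma adjusted p = 0.474).

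Rdh10 (ENSMUSG00000025921, chr1:16105774-16133734, plus strand), which oxidises retinol to retinaldehyde, had the smallest ratio between its highest and lowest library of the 8 genes, at 1.30. Its PD14 libraries held 5.93, 4.74 and 5.19 FPKM. The values were 6.18, 5.72 and 5.87 FPKM at PD15 and 5.62, 5.40 and 5.87 FPKM at PD16. The days overlapped, and the coefficient of variation at PD14 was 11.4%. The difference from PD14 was 0.14 on the log2 scale at PD15 (95% interval -0.03 to 0.31, limma adjusted p = 0.417) and 0.08 at PD16 (95% interval -0.09 to 0.25, limma adjusted p = 0.567). Within a library, the ratio of Dhrs3 to Rdh10 was 2.75 ± 0.228 at PD14, 3.27 ± 0.275 at PD15 and 3.02 ± 0.328 at PD16 (SD, n = 3). The lowest PD15 ratio (2.96) stood above the highest of PD14 (2.90), and PD16 overlapped both. Like the ratio of Aldh1a1 to Aldh1a2, it was examined after the values had been seen, and no test was made of it.

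**Figure D3:**
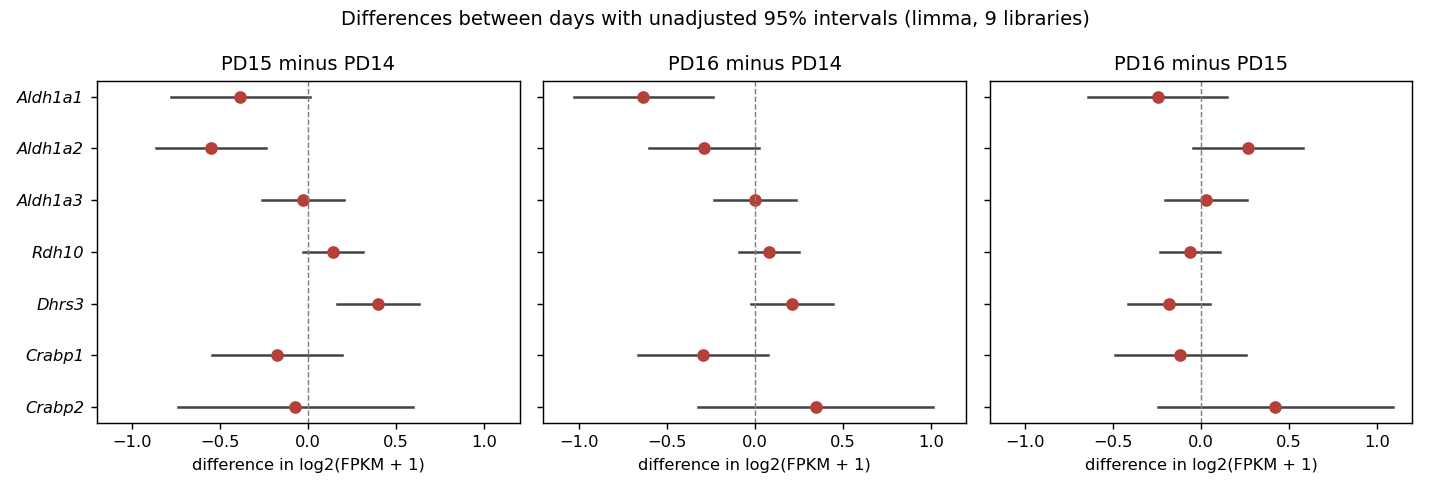
Differences between days in log2(FPKM + 1) (horizontal axis) for the 7 tested genes, with points for the limma estimate and lines for its unadjusted 95% interval over 9 libraries. The intervals that leave out 0 are those of Aldh1a2 and Dhrs3 at PD15 against PD14 and of Aldh1a1 at PD16 against PD14, and none of these passed after adjustment (limma adjusted p = 0.118, 0.132 and 0.0743).

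The binding proteins were not resolved between the days. Crabp1 (ENSMUSG00000032291, chr9:54764748-54773110, plus strand), a cytoplasmic carrier of retinoic acid, measured 7.48, 8.15 and 9.12 FPKM at PD14. The PD15 libraries held 7.20, 5.55 and 9.11 FPKM, and the PD16 libraries 5.18, 7.14 and 7.45 FPKM. PD16 lay below PD14 in every library, by as little as 7.45 against 7.48 FPKM at the nearest pair. The means were 8.25 ± 0.825, 7.29 ± 1.78 and 6.59 ± 1.23 FPKM (SD, n = 3). The log2 difference was -0.18 at PD15 (95% interval -0.55 to 0.19, limma adjusted p = 0.661) and -0.30 at PD16 (95% interval -0.67 to 0.08, limma adjusted p = 0.320), each against PD14. The PD15 value was -0.33 without PD15 replicate 3 and -0.02 without PD15 replicate 2.

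Crabp2 (ENSMUSG00000004885, chr3:87948666-87953376, plus strand) encodes the carrier that delivers retinoic acid to its nuclear receptors. It measured 4.69, 6.83 and 7.28 FPKM at PD14. The PD15 libraries held 3.42, 5.53 and 9.98 FPKM, and the PD16 libraries 9.81, 8.56 and 6.33 FPKM. The lowest and the highest of the 9 libraries were both of PD15, with a coefficient of variation of 53.1%, and the highest library held 2.92 times the lowest. Of all genes tested, 96.9% had a smaller spread within days. The means were 6.27 ± 1.38, 6.31 ± 3.35 and 8.24 ± 1.76 FPKM (SD, n = 3). At PD16 against PD14 the log2 difference was 0.35, with a 95% interval of -0.32 to 1.01 (limma adjusted p = 0.523). At PD15 the FPKM mean was slightly above PD14 while the log2 difference was slightly below 0, at -0.07 (limma adjusted p = 0.935), and its sign was reversed when PD14 replicate 3 or PD15 replicate 1 was left out.

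Cyp26b1 (ENSMUSG00000063415, chr6:84571414-84593908, minus strand), which breaks retinoic acid down, was low in all libraries and did not pass the expression filter. Its PD14 libraries held 1.19, 0.812 and 0.991 FPKM. At PD15 they held 0.462, 1.63 and 0.540 FPKM, and at PD16 1.22, 0.757 and 0.441 FPKM. No day stood apart, and the means were 0.997 ± 0.189, 0.876 ± 0.650 and 0.805 ± 0.390 FPKM (SD, n = 3). The exact permutation test (two-sided) gave p = 0.7 for PD15 against PD14, p = 0.5 for PD16 against PD14 and p = 0.9 for PD16 against PD15.

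The spread of Crabp2 and Cyp26b1 within days was set beside counting error. The libraries held 115 to 379 fragments of Crabp2 and 60 to 207 of Cyp26b1. For Cyp26b1, PD15 replicate 2 had an exact 95% Poisson interval of 1.41 to 1.86 FPKM, whereas those of replicates 1 and 3 of that day were 0.355 to 0.592 and 0.430 to 0.669. For Crabp2, the intervals of PD15 replicate 1 (2.82 to 4.10 FPKM) and PD15 replicate 3 (8.999 to 11.04) were likewise apart. These intervals cover counting error only and treat each fragment as independent. The study's methods name no molecular identifiers, and duplicate fragments would make the intervals too narrow. The spread within days was 5.39 times the counting error for Cyp26b1 and 4.99 times for Crabp2, but 1.69 times for Rdh10 and 1.80 times for Aldh1a3. For all 8 genes this ratio was above 1.

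**Figure D4:**
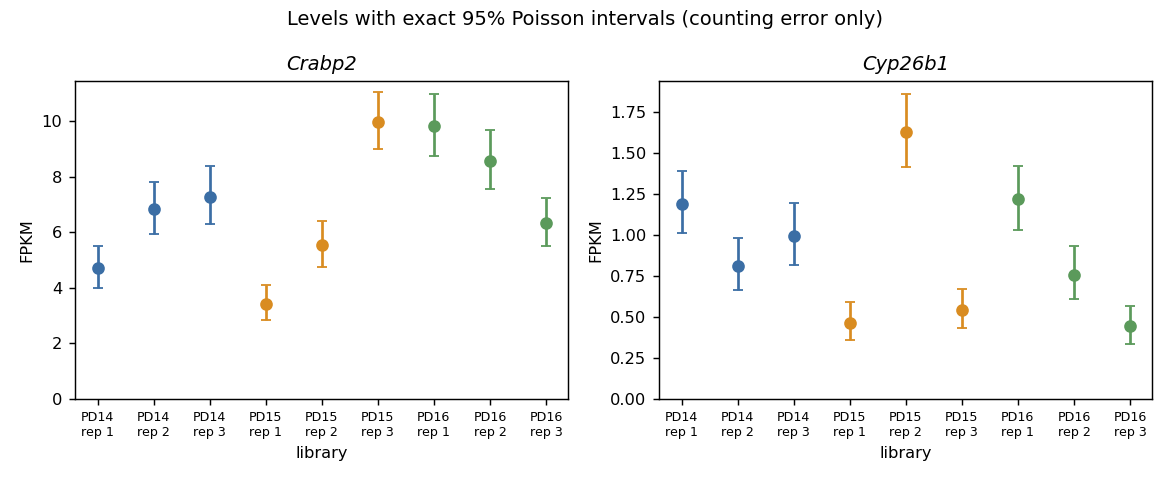
FPKM (vertical axis, linear, from 0) of Crabp2 and Cyp26b1 in each of the 9 libraries, with exact 95% Poisson intervals as bars and colours for the days. The intervals of PD15 replicate 2 (1.41 to 1.86 FPKM) and PD15 replicate 3 (0.430 to 0.669 FPKM) do not meet for Cyp26b1.

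The order of replicates within a day was not common to the genes. At PD15, replicate 3 was the highest library for Aldh1a1, Aldh1a2, Aldh1a3, Crabp1 and Crabp2 and the lowest for Dhrs3. At PD16, replicate 1 was the highest for Aldh1a1, Crabp2 and Cyp26b1 and the lowest for Crabp1 and Aldh1a3. Replicate 3 of PD16 was the lowest for Aldh1a1, Crabp2 and Cyp26b1 and the highest for Aldh1a2, Aldh1a3, Rdh10, Dhrs3 and Crabp1.

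The genes whose pattern over the 9 libraries was most like that of Aldh1a2 were Cxcl16, Lgi2 and Tmem45a, with Pearson r of 0.943, 0.940 and 0.936 and Spearman rho of 0.933, 1.00 and 0.900. Without the 2 libraries farthest from the median of Aldh1a2, r was 0.871, 0.880 and 0.809. Lgi2 measured 7.49, 7.58 and 6.48 FPKM at PD14 and 3.66, 4.004 and 4.99 FPKM at PD15. For Dhrs3, the nearest genes were Alkbh5, Ube2ql1 and Bcl2l1, with r of 0.963, 0.945 and 0.940 and rho of 0.983, 0.950 and 0.917. Without the 2 farthest libraries, r was 0.963, 0.953 and 0.901. Alkbh5, an RNA demethylase, measured 27.0, 26.4 and 27.1 FPKM at PD14 and 33.1, 31.1 and 29.7 FPKM at PD15. These genes were picked for their likeness among all tested genes, and the libraries share their day and depth, so the values are given as a description.

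The rest of the retinoid pathway was described with 69 other genes, of which 40 passed the expression filter. Between PD15 and PD14, 1 of these 40 passed the test and it was lower, between PD16 and PD14 0 passed, and between PD16 and PD15 0 passed. At an unadjusted limma p under 0.05 the counts were 7, 8 and 5 of 40, beside 14.7%, 22.8% and 14.1% of all genes. Their median log2 difference was -0.01 at PD15 and -0.03 at PD16, each against PD14. The gene that passed was Akr1b10, an aldo-keto reductase of a family that reduces retinaldehyde among other substrates. It fell from 7.03 ± 0.494 FPKM at PD14 to 4.99 ± 0.323 at PD15 and stood at 6.32 ± 0.394 at PD16 (SD, n = 3). The log2 difference at PD15 was -0.42 (limma adjusted p = 0.0397, with 0.0372 to 0.141 over all alternatives tried). This call was lost whichever of the 9 libraries was left out, with adjusted p-values by limma of 0.0506 to 0.141.

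Of 12 genes for uptake and storage of retinol, 5 were tested and 0 passed in any comparison. Rbp4, the carrier of retinol in blood, stood at 10.9 ± 0.850, 12.2 ± 1.495 and 12.3 ± 1.59 FPKM at PD14, PD15 and PD16 (SD, n = 3). Of 21 other enzymes in the list for retinol oxidation, retinaldehyde reduction and carotenoid cleavage, 10 were tested, and Akr1b10 was the only one called. The highest of them were Adh5, an alcohol dehydrogenase, with 37.4 ± 2.62, 38.6 ± 3.30 and 38.7 ± 3.69 FPKM, and Dhrs7, with 37.2 ± 3.14, 32.1 ± 3.62 and 30.4 ± 1.52 FPKM. The other CYP26 enzymes were below the filter, with 0.1002 ± 0.104 FPKM at PD14 for Cyp26a1 and 0.0173 ± 0.0151 for Cyp26c1, so that Cyp26b1 had the highest level of this family.

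On the receiving side, 6 of 8 genes for nuclear receptors and their ligand delivery were tested and 0 passed. Rxra and Rxrb, the retinoid X receptors that pair with retinoic acid receptors, stood at 17.2 ± 0.799 and 22.2 ± 1.06 FPKM at PD14, at 15.9 ± 0.885 and 21.2 ± 0.549 at PD15, and at 17.2 ± 0.999 and 22.9 ± 0.229 at PD16. The retinoic acid receptor Rarg, named after its values were seen, stood at 5.78 ± 0.803, 5.43 ± 0.501 and 7.73 ± 1.02 FPKM, with log2 differences at PD16 of 0.36 from PD14 (limma adjusted p = 0.0957) and 0.44 from PD15 (limma adjusted p = 0.117). Of 11 cofactors of these receptors, 10 were tested and 0 passed, with 10 positive differences at PD15 against PD14 and a median of 0.06. The corepressor Ncor1 was among them, with a difference of 0.06 (limma adjusted p = 0.767). Of 18 genes known to respond to retinoic acid in other tissues, 10 were tested and 0 passed, although all 10 differences at PD16 against PD14 were negative, with a median of -0.13 beside 0.0093 over all genes. Gata6, a transcription factor, stood at 46.2 ± 3.09, 45.4 ± 1.57 and 36.9 ± 5.55 FPKM (limma adjusted p = 0.0976 at PD16), and Rarres2, the precursor of chemerin, at 38.8 ± 2.53, 33.6 ± 2.96 and 36.4 ± 2.51 FPKM.

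**Figure D5:**
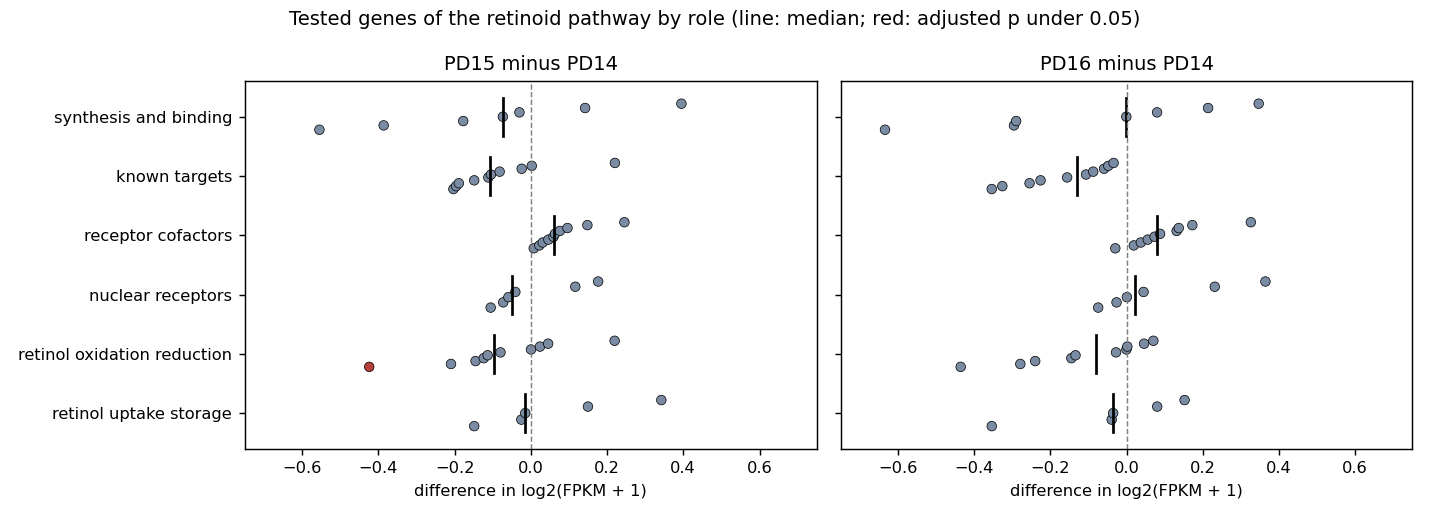
Difference in log2(FPKM + 1) (horizontal axis) from PD14 at PD15 (left) and PD16 (right) for the tested genes, grouped by role (vertical axis, with the spread within a row serving only to separate points). Each point is a gene, the black line is the median of its row, and red marks an adjusted p under 0.05 by limma. The single red point is Akr1b10, at -0.42, and the leftmost point of the top row is Aldh1a2 at PD15 (-0.55) and Aldh1a1 at PD16 (-0.63).

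Markers of cell types were set beside the ALDH1A genes, and their part in the differences was not tested. Of 9 theca and interstitial markers, 0 passed in any comparison and none was at 0, and their summed level was 1637 to 2263 FPKM at PD14, 1212 to 1785 at PD15 and 1252 to 1655 at PD16. Most of this sum was Hsd3b1, a steroid dehydrogenase, with 1785 ± 316, 1291 ± 309 and 1273 ± 205 FPKM (SD, n = 3). The list did not share its direction, since 7 of the 9 differences were negative at PD15 against PD14 (median -0.15) but 5 of 9 were positive at PD16 against PD14 (median 0.06). Cyp17a1, an androgen-forming enzyme, stood at 28.9 ± 2.69, 21.6 ± 2.45 and 37.1 ± 12.6 FPKM, and Star, a cholesterol transporter, at 3.89 ± 0.391, 4.75 ± 1.49 and 5.58 ± 2.28 FPKM. Cyp11a1, which starts steroid synthesis, stood at 46.8 ± 4.99, 25.2 ± 8.25 and 32.8 ± 15.0 FPKM, and Lhcgr, the receptor of luteinising hormone, at 14.4 ± 1.37, 10.4 ± 2.41 and 9.78 ± 1.76 FPKM. Of 11 stromal markers, 0 passed, with sums of 912 to 1018, 777 to 945 and 929 to 935 FPKM on the 3 days. Of 11 surface epithelium markers, 9 were tested and 4 fell at PD16 against PD14, namely Krt8, Krt18, Krt19 and Lgals7, with log2 differences of -0.48, -0.45, -0.42 and -0.49. The adjusted p-values of these 4 genes by limma were 0.0222, 0.0121, 0.0335 and 0.0239, and none of them passed without PD16 replicate 1 (0.0510 to 0.106). Over all 20 alternatives the call was lost in 4, 1, 7 and 5. Of the other 5 tested, Upk1b, Upk3b and Msln had positive differences of 0.09, 0.05 and 0.11 and Cdh1 and Lrrn4 negative ones of -0.20 and -0.09, and none of these passed. The summed level of this list was 76.2 to 87.0 FPKM at PD14, 72.4 to 78.8 at PD15 and 58.9 to 65.0 at PD16. Of the 12 granulosa markers, Amh rose at PD16 by 0.47 on the log2 scale and Cyp19a1, the aromatase that makes oestrogen, fell by 0.84 (limma adjusted p = 0.0223 and 0.0316). The call of Amh was lost in 4 of 20 alternatives (adjusted p by limma of 0.0160 to 0.0848) and that of Cyp19a1 in 8 (0.0229 to 0.1003), and neither passed without PD14 replicate 1, PD14 replicate 3 or PD16 replicate 1. The summed granulosa level was 3203 to 3903 FPKM at PD14, 3071 to 3463 at PD15 and 3233 to 3806 at PD16.

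The remaining marker lists gave few calls by limma, again with their part not tested. Of 14 oocyte markers, Nlrp5 rose at PD15 and Bmp15 at PD16 against PD14, Zp2 and Nlrp5 fell at PD16 against PD15, and the summed level was 1504 to 1843, 1906 to 2001 and 1366 to 1485 FPKM on the 3 days. Of the 14 differences, 10 were positive at PD15 against PD14 (median 0.16), 11 were negative at PD16 against PD14 (median -0.25) and all 14 were negative at PD16 against PD15 (median -0.31). Of 9 tested blood and immune markers, Hba-a1, a globin gene, fell at PD15 and Lyz2, a macrophage lysozyme, rose at PD16, each against PD14. Of 7 smooth muscle markers Cnn1 rose at PD16 against PD14. Of 7 fat markers, 6 had a mean under 1 FPKM, among them Adipoq with 0.0298, 0.0263 and 0.0618 FPKM on the 3 days. The 1 tested, Plin1, fell at PD15 and PD16 against PD14, with 6.97, 4.23 and 4.65 FPKM, and the list does not show whether fat tissue changed. None of 8 endothelial and 4 tested oviduct markers passed, and 7 of the 11 oviduct markers had a mean under 1 FPKM. Of the 4 tested, Cldn3 stood at 2.30, 1.06 and 1.04 FPKM on the 3 days. Its log2 differences from PD14 were -0.69 at PD15 and -0.71 at PD16 (limma adjusted p = 0.116 and 0.05145). Against PD14, 2 of the 4 differences were positive at PD15 and 1 at PD16.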

How the data were processed

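RNA-Seq was performed by the study on 9 ovary libraries, 3 for each of PD14, PD15 and PD16, and the FPKM values of each library were deposited by the authors as 1 table. Per the submitters' processing notes, HISAT2 2.0.5 and the mouse build mm10 were used. The counting tool, the annotation and the strandedness are not given in the sources used here. Depth was 20.4 to 28.7 M mapped fragments, derived from the FPKM steps and GENCODE M21 exon lengths, and 94.9% to 95.3% of low values came out whole within 0.05 fragment. No 2 libraries were identical, and 50462 of 52025 identifiers (97.0%) were in GENCODE M21.

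Libraries were grouped by the day in their labels. A gene was tested when its mean exceeded 1 FPKM on any day (15495 genes), as log2(FPKM + 1), which understates differences of low genes, with limma 3.58.1 (R 4.3.3, intensity trend, all 9 libraries in 1 fit) and Benjamini-Hochberg adjustment over all of them. A gene was called at an adjusted p under 0.05. Single genes were also compared by a two-sided exact permutation test of 3 against 3 libraries. The script was tested on simulated data.

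All 8 genes, in every library, were named. Of each list of other pathway genes, the called genes and the 2 with the highest mean were named, and for the 2 genes of the 8 with the smallest F-test p the 3 most correlated tested genes. Some genes that this rule names are not reported here. Marker genes named by themselves were chosen after their values were seen. The 8 genes and the lists were chosen with earlier results of these data known. The alternatives were pseudocounts of 0.1 and 0.5, no filter and a filter at 5 FPKM, median-ratio scaling, quantile normalisation, 3 other limma settings, fits of only the days compared, the replicate number as a block, and each library left out in turn. Matplotlib 3.10.9, SciPy 1.17.1, pandas 2.3.3, NumPy 2.4.6 and Python 3.11.15 were used. Promoter sequences were from RefSeq (GRCm38.p6).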

Additional observations from a re-analysis of the deposited data

How the results depend on the processing

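The count of the 7 tested genes that passed was 0 for PD16 against PD15 under all alternatives. For PD16 against PD14 it was 1 (Aldh1a1) under quantile normalisation (adjusted p = 0.0268 by limma) and 1 under array weights (0.0479), and 0 to 1 with a library left out. Among the days it was 1 under quantile normalisation, 1 under array weights and 0 to 1 with a library left out. For PD15 against PD14 it was 0 to 1 with a library left out. The replicate numbers did not pair the libraries, since deviations of same-numbered libraries correlated at -0.21 to 0.16 and 2 of 9 libraries correlated best with their own number. With the replicate block, 0 of the 7 genes passed in each comparison, and the calls over all genes were 24, 227 and 56 for PD15 against PD14, PD16 against PD14 and PD16 against PD15, beside 105, 659 and 113 without it. With no filter on low values they were 29, 172 and 24. With array weights they were 184 and 237 for PD15 against PD14 and PD16 against PD15. With a filter at 5 FPKM they were 63 for PD15 against PD14. With only the days compared they were 46 and 323 for the comparisons with PD14. Without a library they were 3 to 92, 92 to 660 and 14 to 125. The cause was not tested.

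Of 417 differences of single genes under the alternatives, 401 kept their direction and their side of the threshold, 4 newly passed and 12 changed sign, in 5 of 21 gene and comparison pairs. Those of Aldh1a3 were -0.0878 to 0.0734 for PD15 against PD14, -0.0404 to 0.0410 for PD16 against PD14 and -0.0738 to 0.0873 for PD16 against PD15 with a library left out, and 0.0229 for PD16 against PD14 under quantile normalisation. Crabp2 was at -0.42 to 0.24 for PD15 against PD14 and Crabp1 at -0.28 to 0.0368 for PD16 against PD15 with a library left out. With a library left out, the differences for PD16 against PD14 were 0.02 to 0.15 for Rdh10, 0.10 to 0.30 for Dhrs3, -0.34 to -0.19 for Aldh1a2, -0.38 to -0.15 for Crabp1 and 0.18 to 0.50 for Crabp2. For PD15 against PD14 those of Rdh10 were 0.08 to 0.22 and those of Crabp1 -0.33 to -0.02. For PD16 against PD15 they were -0.45 to -0.10 for Aldh1a1, 0.14 to 0.43 for Aldh1a2, -0.09 to -0.04 for Rdh10, -0.29 to -0.10 for Dhrs3 and 0.11 to 0.76 for Crabp2. Counting error was below the spread within days for all 8 genes, at depths down to 60 fragments of Cyp26b1 in a library.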
